A study of Homo sapiens with 24 samples.

Results

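The genes described here encode the proteins of the mitochondrial ribosome that carry an MRPL or MRPS symbol. They were chosen by symbol alone, as protein-coding genes whose name starts with MRPL or MRPS followed by a digit, which gave 77 of 20037 protein-coding genes, 49 named for the large subunit (MRPL) and 28 for the small subunit (MRPS). Binding was read from CUT&RUN, which uses antibody-bound nuclease to release the DNA around a chromatin protein for sequencing, in HUDEP-2, an immortalized human erythroid progenitor line that makes adult haemoglobin. All cells carried an epitope tag put in by genome editing and were grown as expanding cultures with no further treatment. Cell line T carries TR4 with C-terminal 3FLAG and 3MYC tags, cell line B carries BCL11A with 3HA and 3MYC tags, and cell line TB carries both. Each line is 1 edited clone, so a difference between lines cannot be told apart from a difference between clones. The nuclear receptor TR4 was reached with the MYC antibody in clone T and with a TR4 antibody in clones T and TB, and the zinc finger repressor BCL11A with the MYC and HA antibodies in clone B and the HA antibody in clone TB. In clone TB the MYC antibody reaches both proteins. These 7 combinations have 3 libraries each, and IgG, which reaches no chosen target, has 1 library in each of the 3 clones. The study compared the 2 proteins to learn how TR4 acts on the fetal γ-globin genes, which BCL11A is known to repress.

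The mitochondrial ribosome translates the few proteins that the mitochondrial genome encodes, all of them membrane subunits of the respiratory chain and ATP synthase. Its RNAs come from mitochondrial DNA, but all of its proteins are encoded by nuclear genes, made in the cytosol and imported. Some descend from bacterial ribosomal proteins and others are found only in mitochondria. Erythroid precursors need working mitochondria for heme synthesis, which begins and ends in that organelle. TR4 belongs to the receptors that bind repeats of the half-site AGGTCA, most readily direct repeats, and BCL11A is known to bind TGACCA.

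There were 4621 to 31432 peaks in the 21 target lists and the 3 IgG lists 2036 to 4828, with replicate 3 the shortest in all 7 groups. BCL11A-directed lists held 23089 ± 7441 peaks and TR4-directed lists 10154 ± 3807 (SD, n = 9 each), so counts of genes with a peak move with list length. Read counts were not analysed here, so depth is unknown. The labels do not tell whether the 3 libraries of a group are separate cultures, and p-values cover the spread among these libraries alone, which may be technical. Of the erythroid genes looked up, HBB had an end peak in 0 TR4-directed and in all 9 BCL11A-directed libraries, and ALAS2 in none of the 24 libraries. A peak at the end of a gene does not measure expression.

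The promoters of 5 members are printed first, as examples of called members and of members with a peak in every target library. MRPL53 and MRPL43 had the largest excess of TR4-directed libraries among members and MRPS34 the largest excess of BCL11A-directed libraries. MRPL4 and MRPS10 are 2 of the 10 members with a peak in every target library. Each run is RefSeq sequence of GRCh38.p14, 5′ to 3′ on the gene's own strand, from 250 bases before to 50 after the annotated start. Capitals mark the half-site AGGTCA, the BCL11A motif TGACCA and the ETS factor core CCGGAAG, on either strand. The runs lie at chr2:74472631-74472930 (MRPL53, minus strand), chr10:100987448-100987747 (MRPL43, minus), chr16:1773085-1773384 (MRPS34, minus), chr19:10251701-10252000 (MRPL4, plus) and chr6:42217812-42218111 (MRPS10, minus).
MRPL53: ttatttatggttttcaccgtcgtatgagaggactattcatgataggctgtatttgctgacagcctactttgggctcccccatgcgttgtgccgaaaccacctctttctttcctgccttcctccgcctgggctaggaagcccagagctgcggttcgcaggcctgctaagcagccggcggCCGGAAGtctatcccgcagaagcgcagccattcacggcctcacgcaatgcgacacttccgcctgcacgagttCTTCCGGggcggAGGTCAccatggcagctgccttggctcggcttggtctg
MRPL43: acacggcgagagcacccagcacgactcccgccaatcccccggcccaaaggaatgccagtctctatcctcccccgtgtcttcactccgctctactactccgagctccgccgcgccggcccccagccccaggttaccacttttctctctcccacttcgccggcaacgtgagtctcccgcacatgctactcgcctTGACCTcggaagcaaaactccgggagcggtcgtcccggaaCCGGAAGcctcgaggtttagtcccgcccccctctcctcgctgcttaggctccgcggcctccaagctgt
MRPS34: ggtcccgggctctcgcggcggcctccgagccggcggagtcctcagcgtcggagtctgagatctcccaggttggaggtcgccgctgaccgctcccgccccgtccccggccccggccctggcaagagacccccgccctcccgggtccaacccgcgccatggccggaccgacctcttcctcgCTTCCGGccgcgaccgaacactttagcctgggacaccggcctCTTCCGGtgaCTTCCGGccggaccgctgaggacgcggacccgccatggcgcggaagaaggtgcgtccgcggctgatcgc
MRPL4: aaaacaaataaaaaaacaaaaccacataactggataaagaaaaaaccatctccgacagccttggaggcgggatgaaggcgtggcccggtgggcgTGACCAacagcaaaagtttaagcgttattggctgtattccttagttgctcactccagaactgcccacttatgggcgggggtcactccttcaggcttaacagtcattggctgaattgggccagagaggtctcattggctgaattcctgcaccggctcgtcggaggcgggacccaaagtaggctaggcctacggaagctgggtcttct
MRPS10: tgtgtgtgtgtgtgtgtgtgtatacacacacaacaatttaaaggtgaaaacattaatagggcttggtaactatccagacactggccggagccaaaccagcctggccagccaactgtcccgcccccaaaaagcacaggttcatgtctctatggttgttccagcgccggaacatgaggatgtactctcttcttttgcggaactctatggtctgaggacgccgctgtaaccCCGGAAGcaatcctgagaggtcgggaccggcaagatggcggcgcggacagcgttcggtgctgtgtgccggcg

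The MRPL53 promoter held AGGTCA at 12 to 17 bases past the annotated start, and MRPL43 held it on the other strand at positions -58 to -53 from the start. At MRPL53 the nearest summit of the 9 TR4-directed libraries lay 0.5 to 23.5 bases from the middle of that half-site, with a median of 17.5. At MRPL43 the distance was 31.5 to 46.5 bases, with a median of 46.5. The few BCL11A-directed summits there were about as near, at 21.5 bases (MRPL53, 1 library) and 41.5 and 50.5 bases (MRPL43, 2 libraries). Over the 11 members with AGGTCA in the promoter window, TR4-directed medians ran from 10.5 bases (MRPL11) to 433.5 (MRPL34). The BCL11A-directed medians ran from 21.5 (MRPL53) to 254.5 (MRPL11). MRPS34 held CCGGAAG 3 times and neither AGGTCA nor TGACCA, and MRPL4 held TGACCA once, at positions -156 to -151 from the start. MRPS10 held CCGGAAG once.

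Peaks at member genes were common with every targeted antibody and nearly absent with IgG. A member was counted when a peak lay within 1 kb of either end of its gene record. In TR4-directed libraries 48, 54 and 26 members had a peak with MYC in clone T (replicates 1 to 3), 42, 59 and 29 with the TR4 antibody in clone T, and 47, 52 and 37 with it in clone TB. The MYC antibody in clone TB gave 64, 63 and 59. In BCL11A-directed libraries the counts were 65, 68 and 30 with MYC in clone B, 60, 64 and 31 with HA in clone B, and 58, 57 and 34 with HA in clone TB. IgG gave 0 members in clones TB and T and 2 in clone B. Replicate 3 was the low library in every group, and the ranges of TR4-directed and BCL11A-directed libraries overlapped. TR4-directed libraries averaged 43.8 ± 11.3 members and BCL11A-directed ones 51.9 ± 15.6 (SD, n = 9 each). The difference of the means was -8.11 members.

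**Figure D1:**
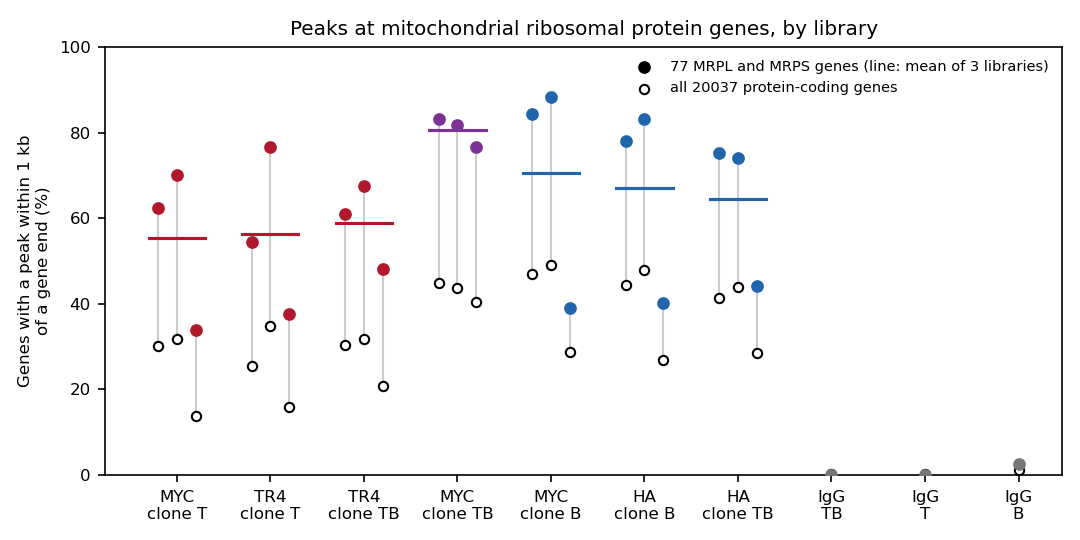
Share of the 77 MRPL and MRPS genes (filled) and of all 20037 protein-coding genes (open) with a peak within 1 kb of a gene end, 1 pair of points per library, grouped by antibody and clone, with the mean of 3 libraries as a line. In all 21 target libraries the filled point lies above the open one, and the 3 IgG libraries lie at 2.6% or lower.

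A group peak, meaning that 2 or 3 of the 3 libraries had one, was found at 47 members (61.0%) with MYC in clone T, where 27.2% of all protein-coding genes had one. With the TR4 antibody it was found at 42 members (54.5%, against 25.5% of all genes) in clone T and 45 (58.4%, against 28% of all genes) in clone TB. The MYC antibody in clone TB gave 62 members (80.5%, against 43.3% of all genes). On the BCL11A side the counts were 63 members (81.8%, against 44.8% of all genes) with MYC in clone B, 59 (76.6%, against 42.5%) with HA in clone B and 54 (70.1%, against 39.3%) with HA in clone TB. IgG peaks lay at 0.265% of all genes in clone TB, 0.324% in clone T and 1.13% in clone B. The share of members was above the share of all genes in each target group, and by a larger factor on the TR4 side. Per library, the members' share over that of all genes averaged 2.21 ± 0.146 on the TR4 side and 1.67 ± 0.160 on the BCL11A side (SD, n = 9 each), with ranges of 2.01 to 2.46 and 1.36 to 1.82 that did not overlap. The ratio has a ceiling that falls as more genes have a peak, as in the longer BCL11A-directed lists.

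Many members had peaks of both proteins. A group peak was found in all 3 TR4-directed groups at 39 members (50.6%, against 21.1% of all genes), in all 3 BCL11A-directed groups at 49 (63.6%, against 35.8%) and in all 6 at 31 (40.3%, against 18.7%). A peak was present in all 18 of these libraries at 10 members (12.99%, against 6.96% of all genes), and the same 10 had one in all 3 MYC libraries of clone TB. A BCL11A-directed peak and no TR4-directed one was found at 11 members (14.3%, against 14.7% of all genes), and 0 members had the reverse (1.69% of all genes), with BCL11A-directed lists the longer ones. More TR4-directed than BCL11A-directed libraries had a peak at 19 members (24.7%, against 8.15% of all genes), fewer at 38 (49.4%, against 39.9%) and an equal number above 0 at 16 (20.8%, against 9.67%).

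No peak was found in any of the 21 target libraries at 4 members, which is 5.19% of members and 41.5% of all genes. They are MRPL13 and MRPL24, large-subunit proteins with bacterial homologues, and MRPL44 and MRPS35, which have none. No peak in a list means that none within 1 kb of a record end passed the caller's threshold, at an unknown depth. The annotated starts of MRPL24 (chr1:156741088) and MRPL44 (chr2:223957463) lie more than 1 kb inside their gene records. Those starts fell outside the windows searched, so the absence of a peak does not describe them. MRPL35 and MRPS25 were the members with a peak in the IgG library of clone B. MRPS25, a small-subunit protein, had peaks in 7 TR4-directed and 7 BCL11A-directed libraries at the same place, and MRPL35, a large-subunit protein, in 2 and 3.

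**Figure D2:**
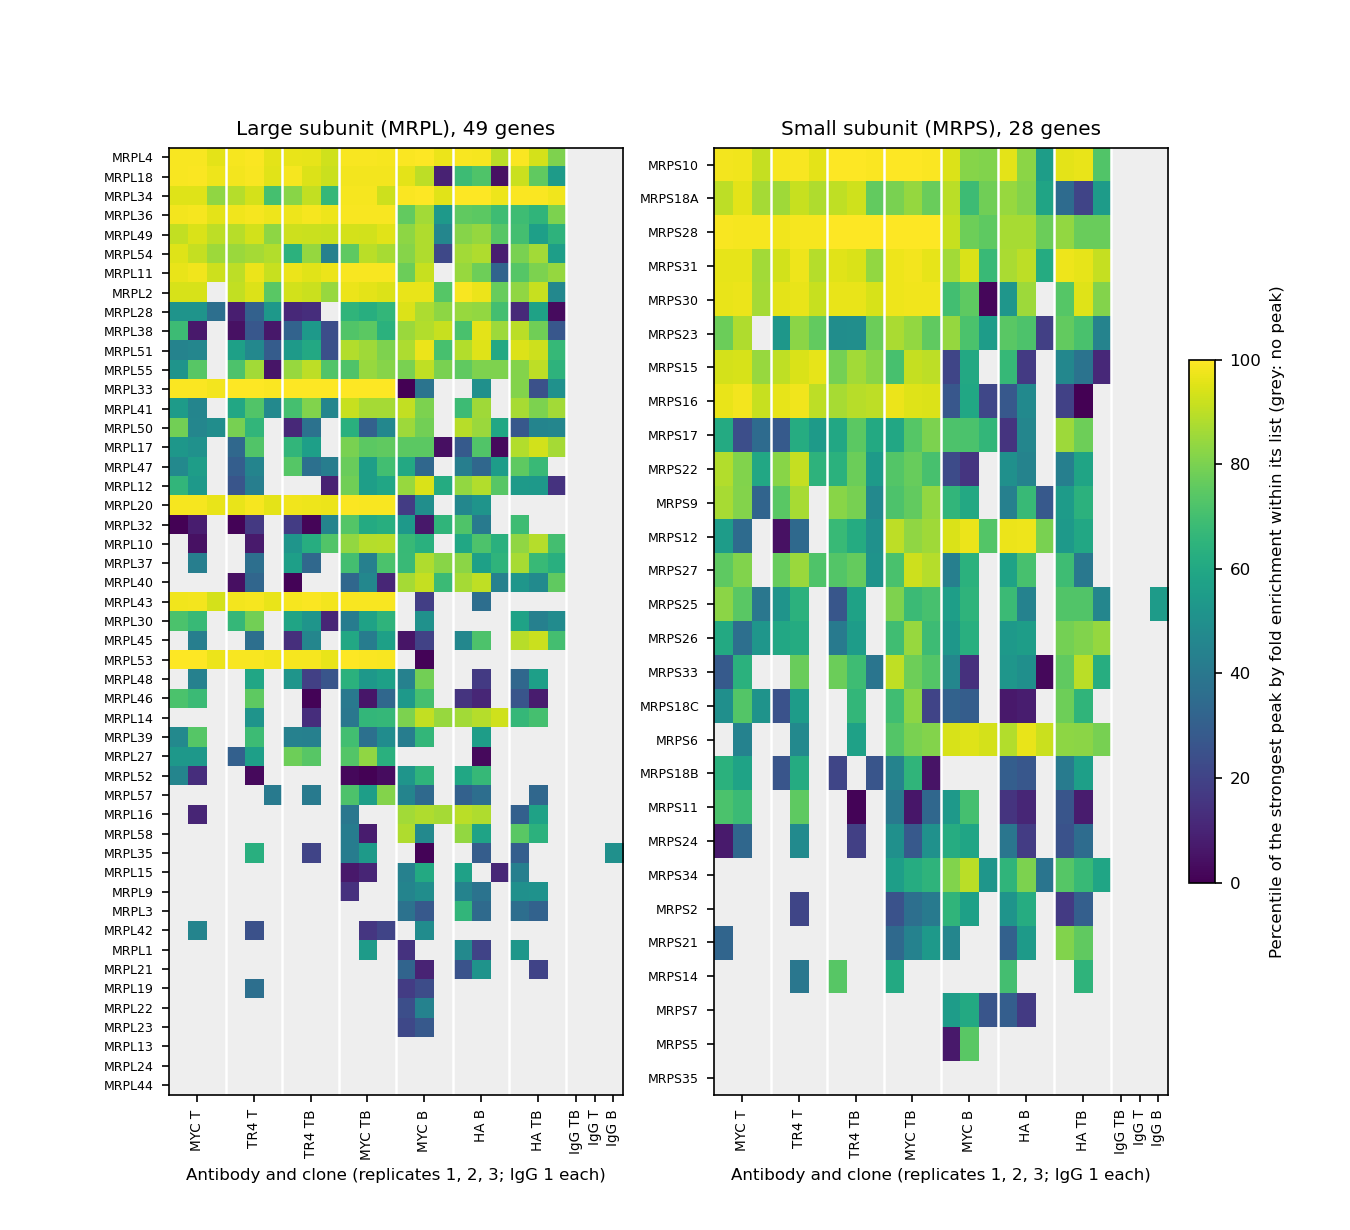
Percentile of each member's strongest peak by the authors' fold enrichment within its own list (colour, 100 is the strongest), for 49 large-subunit genes (left) and 28 small-subunit genes (right) by library, with TR4-directed libraries at the left of each panel and IgG at the right. Grey means no peak. The 10 genes with a peak in all 21 target libraries stand at the top of the panels, and the 4 genes with none stand at the bottom.

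Gene preference was judged by a two-sided Fisher's exact test on 9 TR4-directed against 9 BCL11A-directed libraries, with Benjamini-Hochberg adjustment over all 9585 protein-coding genes with peaks in 4 or more of the 18. Of the 77 members 68 entered the test. Of the other 9, 4 had no peak in a target library and 5 (MRPL19, MRPL22, MRPL23, MRPL42 and MRPS5) had a peak in 1 to 3 of the 18 libraries. The test called 2 members TR4-preferred, MRPL53 and MRPL43, where 0.856% of all genes tested were called in that direction, and 1 member BCL11A-preferred, MRPS34, where 10.7% were. At an unadjusted p under 0.05 there were 4 members in the TR4 direction, against 2.2% of all genes tested, and 13 in the BCL11A direction, against 26.2%. Leaving out 1 library kept the TR4 count at 2 and moved the BCL11A count by more than 1.5 times for 10 of the 18 libraries. It became 6 and 8 without MYC clone T replicates 1 and 2, 2 and 9 without TR4 clone T replicates 1 and 2, and 7 and 8 without TR4 clone TB replicates 1 and 2. It became 8 without MYC clone B replicate 3, 9 without HA clone B replicate 3, and 8 and 11 without HA clone TB replicates 1 and 3. Over all genes tested the BCL11A count, 1030, rose in the same fits. It was 1054 without TR4 clone T replicate 1 and 1608 to 1873 in the others, of 9447 to 9570 genes tested. Whether the count of members rose more than that of all genes was not tested. Without the MYC libraries Fisher's exact test called 0 genes of 8599 in either direction, with 86 in the TR4 direction and 875 in the BCL11A direction at an unadjusted p under 0.05 (2 and 1 of them members).

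MRPL53 (mL53, a large-subunit protein without a bacterial homologue, chromosome 2) carried some of the strongest TR4-directed peaks. The fold enrichment of its strongest peak, the authors' linear ratio, was 245, 262 and 56.1 with MYC in clone T, 154, 150 and 63.7 with the TR4 antibody in clone T, and 114, 119 and 63.6 with it in clone TB. MYC in clone TB gave 179, 155 and 78.2. Among BCL11A-directed libraries there was 1 peak, with a fold of 3.76 in MYC clone B replicate 2, near the bottom of its list at the 0.988 percentile. Peaks were thus called in all 9 TR4-directed and in 1 BCL11A-directed library (Fisher's exact test, p = 0.000411, adjusted p = 0.00716). The region spans chr2:74471757-74472887 (GRCh38) and holds the whole of this short gene record, and an end of CCDC142 lies within 1 kb.

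MRPL43 (mL43, also specific to mitochondria) had a similar pattern on chromosome 10. Its folds were 99.3, 120 and 36.5 with MYC in clone T, 109, 127 and 46.9 with the TR4 antibody in clone T, 128, 167 and 93.2 with it in clone TB, and 101, 108 and 91.5 with MYC in clone TB. The 2 BCL11A-directed peaks had folds of 5.67 (MYC clone B replicate 2) and 7.61 (HA clone B replicate 2). The count was 9 on the TR4 side against 2 on the BCL11A side (Fisher's exact test, p = 0.00226, adjusted p = 0.0222). The region, chr10:100987027-100987651, holds the start of MRPL43, and an end of TWNK, the mitochondrial DNA helicase gene, lies within 1 kb. A peak there cannot be given to 1 of the genes. With peaks near another gene's end left out, neither MRPL43 (0 against 0 libraries) nor MRPL53 (2 against 0) kept its call.

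MRPS34 (mS34, a small-subunit protein specific to mitochondria, chromosome 16) had the opposite pattern. None of the 9 TR4-directed libraries had a peak. All 9 BCL11A-directed libraries did, with folds of 15.9, 22.4 and 7.80 with MYC in clone B, 10.7, 16.5 and 6.74 with HA in clone B, and 11.9, 10.5 and 7.81 with HA in clone TB (Fisher's exact test, p = 4.11e-05, adjusted p = 0.00205). The MYC antibody in clone TB, which reaches both proteins, gave 9.83, 10.7 and 10.9. The peaks lay at chr16:1773107-1773287 and chr16:1773399-1773595, and ends of NME3 and EME2 lie within 1 kb. With such shared regions left out, MRPS34 had 0 libraries on either side, and with every list limited to its 4621 strongest peaks it had 0 TR4-directed and 1 BCL11A-directed library.

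Within clone TB, where both antibodies were used on the same cells, MRPL53, MRPL43 and MRPL20 had a peak in 3 of 3 TR4 antibody libraries and 0 of 3 HA libraries, and MRPS34 had the reverse. Of all protein-coding genes 0.614% were at 3 against 0 and 4.06% at 0 against 3 between these groups. With 3 libraries against 3, a two-sided Fisher's exact test cannot give a p below 0.1. MRPL20 (bL20, a large-subunit protein with a bacterial homologue) had folds of 138, 140 and 52.1 with MYC in clone T, 73.4, 131 and 43.4 with the TR4 antibody in clone T, and 94.1, 88.2 and 67.8 with it in clone TB. In clone B its folds were 5.54 and 8.97 with MYC and 7.93 and 9.67 with HA, each in replicates 1 and 2 only. It did not pass the test over all genes (9 against 4 libraries, Fisher's exact test, adjusted p = 0.117). Its main region, chr1:1407207-1407486, has no other protein-coding gene end within 1 kb.

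A further 5 members, named after their values were seen, missed the threshold at an adjusted p of 0.0555 (Fisher's exact test). MRPL40 and MRPS6 had peaks in 3 TR4-directed and 9 BCL11A-directed libraries. MRPL3, MRPL9 and MRPL58, the last a peptidyl-tRNA hydrolase built into the large subunit, had 0 TR4-directed and 6 BCL11A-directed peaks. MRPS6 (bS6) had folds of 7.84, 8.59 and 10.4 in its 3 TR4-directed libraries and 10.9 to 33.3 in the BCL11A-directed ones. All 5 sit at the threshold. Each was called in 9 (MRPL3, MRPL9, MRPL58 and MRPS6) or 10 (MRPL40) of the 18 fits that left out 1 library. With equal list lengths MRPL40 and MRPS6 were called. MRPL40 (mL40) had folds of 3.77 to 6.86 in TR4-directed and 7.12 to 23.9 in BCL11A-directed lists.

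**Figure D3:**
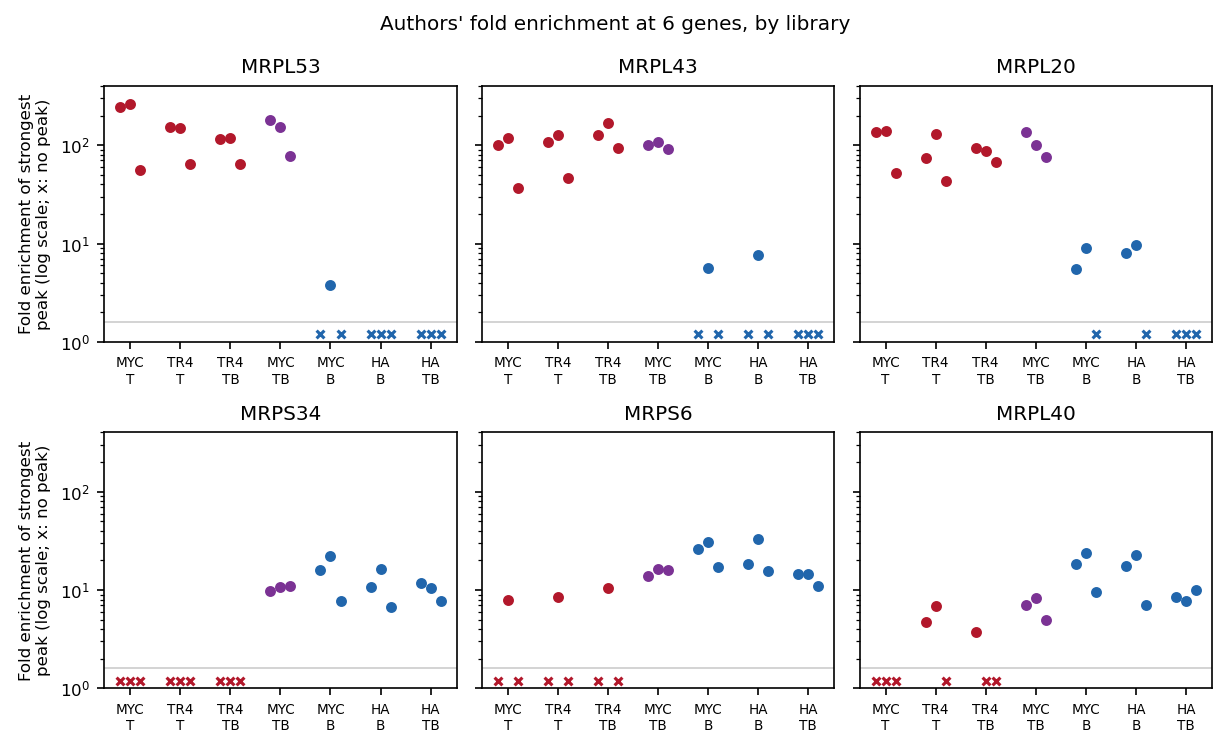
The authors' fold enrichment of the strongest peak within 1 kb of a gene end, on a log axis, for 6 members by library (red TR4-directed, purple MYC in clone TB, blue BCL11A-directed). Crosses under the grey line mark libraries with no peak. MRPL53, MRPL43 and MRPL20 show folds of 36.5 or more in every TR4-directed library and under 10 in the BCL11A-directed ones, and MRPS34 has crosses in all 9 TR4-directed libraries.

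In lists as deposited, which are shorter on the TR4 side, the place of members within a list differed between the proteins. Among members with a peak, 31.9% to 46.2% had one in the top 10% of a TR4-directed list by fold enrichment, where 15.6% to 18.1% of all genes with a peak did. In BCL11A-directed lists 5.88% to 19.1% of members did, where 14.4% to 22.3% of all genes did. The means were 36.8% ± 5.46 in TR4-directed and 12.3% ± 4.14 in BCL11A-directed lists (SD, n = 9 each), and the ranges did not overlap. MYC in clone TB lay between, at 28.6% to 29.7% of members and 20.0% to 21.8% of all genes. The members were chosen with earlier results known, so these shares carry no test.

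In all, 9 members (11.7%) had a peak in the top 10% of all 9 TR4-directed lists, where 1.82% of all protein-coding genes did. They were MRPL4, MRPL18, MRPL20, MRPL33, MRPL36, MRPL43, MRPL53, MRPS10 and MRPS28. A single member (1.30%), MRPL34, was in the top 10% of all 9 BCL11A-directed lists, where 1.23% of all genes were. MRPL33 (bL33) was not called with lists as deposited. Its folds, each relative to its own list, were 214, 216 and 68.0 with MYC in clone T, 213, 321 and 100 with the TR4 antibody in clone T, and 295, 297 and 201 with it in clone TB. A peak was also present in 6 BCL11A-directed libraries, with folds of 3.07 to 14.1 (9 against 6 libraries, Fisher's exact test, adjusted p = 0.453). With equal list lengths it was called (9 against 0, Fisher's exact test, adjusted p = 0.000338).

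Among the 10 members with a peak in all 18 libraries, MRPL4 (uL4, which lines the exit tunnel) had the highest mean percentile, 96.2. Its folds were 167, 179 and 47.3 with MYC in clone T, 132, 175 and 42.6 with the TR4 antibody in clone T, and 67.4, 66.0 and 35.4 with it in clone TB. BCL11A-directed folds were 56.0, 68.2 and 21.6 with MYC in clone B, 42.5, 42.2 and 14.4 with HA in clone B, and 44.6, 22.1 and 11.2 with HA in clone TB. MRPL4 thus stood near the top of lists of both kinds, at the 97.1 ± 2.19 percentile in TR4-directed and 95.2 ± 6.37 in BCL11A-directed lists (SD, n = 9 each). Its shared region was chr19:10251728-10252028.

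MRPL34 (bL34) had a mean percentile of 91.9 over the 18 lists, and was the 1 gene of these 10 with the lower mean in TR4-directed lists, at 85.1 ± 10.5, against 98.7 ± 1.49 in BCL11A-directed lists (SD, n = 9 each). Its strongest region, chr19:17305354-17305928, lies near the far end of its gene record, 13040 bases past the annotated start used here. Only 1 annotated start per gene was used, so whether another start of MRPL34 lies near that region was not examined. The promoter window at the start used, not printed above, held AGGTCA at positions -172 to -167 and, on the other strand, at -37 to -32. The other named genes of this set were higher in TR4-directed lists. MRPS10 (uS10) stood at the 97.7 ± 2.73 percentile in TR4-directed and 84.1 ± 13.6 in BCL11A-directed lists, at chr6:42217221-42218184. Mean percentiles in TR4-directed lists were 99.1 for MRPS28, 92.4 for MRPS31, 97.8 for MRPL36, 90.7 for MRPL49 and 97.1 for MRPL18. In BCL11A-directed lists they were 81.6 for MRPS28, 85.7 for MRPS31, 72.2 for MRPL36, 72.1 for MRPL49 and 62.6 for MRPL18. The MRPL36 region lies at the record end next to NDUFS6, a complex I subunit gene, with its median summit at -1570 bases from the annotated start of MRPL36. Records of TPD52-MRPS28 and TPD52 each have an end within 1 kb of an end of the MRPS28 record, so MRPS28 peaks may be shared with them. MRPS18A was at 88.6 in TR4-directed and 63.4 in BCL11A-directed lists, and MRPL54 at 80.5 in TR4-directed and 66.3 in BCL11A-directed lists. MRPS18A and MRPS30 have small-subunit symbols although their proteins sit in the large subunit (mL66 and mL65). MRPS30 peaks were called in 9 libraries on the TR4 side and 8 on the BCL11A side.

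With only the 4621 strongest peaks of each list by q-value, the length of the shortest target list, the difference between the proteins had the other sign. TR4-directed libraries then had 28.9 ± 1.62 members with a peak, 26 to 31, and BCL11A-directed libraries 16.3 ± 1.41, 14 to 19 (SD, n = 9 each). The groups did not overlap, and the difference of means was 12.6 members. Of all protein-coding genes 15.4% ± 1.01 had a peak in TR4-directed and 13.8% ± 0.847 in BCL11A-directed lists of that length. Within clone TB the TR4 antibody gave 30.3 ± 0.577 members and the HA antibody 15.7 ± 0.577 (SD, n = 3 each). The test by gene on these lists took in 38 members and called 13 TR4-preferred, where 22.2% of the 4814 genes tested were called in that direction, and 2 BCL11A-preferred, where 14.6% were. The 13 were MRPL11, MRPL20, MRPL33, MRPL36, MRPL43, MRPL49, MRPL53, MRPS9, MRPS15, MRPS16, MRPS22, MRPS27 and MRPS30, and the 2 were MRPL40 and MRPS6. Only genes with strong peaks in at least 4 lists enter that test, so these counts describe the strongest peaks and not all 77 members.

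**Figure D4:**
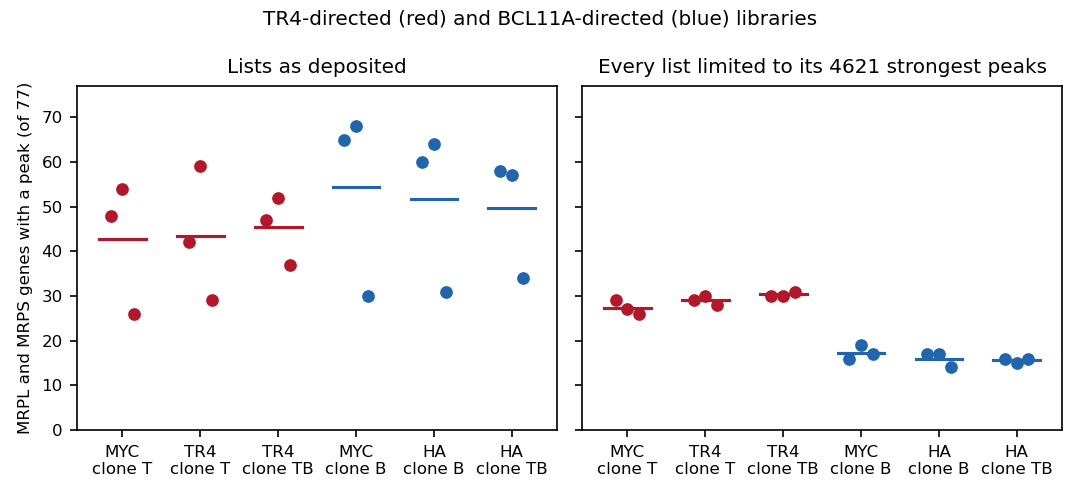
Number of the 77 members with a peak in each TR4-directed (red) and BCL11A-directed (blue) library, with lists as deposited (left) and limited to their 4621 strongest peaks (right), lines marking means of 3 libraries. The groups overlap on the left and separate on the right, at 26 to 31 in TR4-directed and 14 to 19 in BCL11A-directed libraries.

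The subunits were compared by the share of their genes with a peak, without a test. The share of large-subunit genes minus that of small-subunit genes came to -9.81 ± 6.12 percentage points on the TR4 side and -8.22 ± 11.4 on the BCL11A side (SD, n = 9 each). It was below 0 in 9 of 9 TR4-directed, 3 of 3 MYC clone TB and 6 of 9 BCL11A-directed libraries. On average 53.3% ± 15.2 of large-subunit and 63.1% ± 14.4 of small-subunit genes had a peak in TR4-directed libraries, against 64.4% ± 18.8 and 72.6% ± 24.3 in BCL11A-directed libraries. A group peak was found at 27 large-subunit and 20 small-subunit genes with MYC in clone T, 25 and 17 with the TR4 antibody in clone T, and 28 and 17 with it in clone TB. It was found at 38 and 24 with MYC in clone TB, 39 and 24 with MYC in clone B, 34 and 25 with HA in clone B, and 30 and 24 with HA in clone TB. With only the annotated start used, which leaves 69 members with a known strand, the difference came to -1.15 percentage points on the TR4 side and -1.50 on the BCL11A side. Of the 8 members this leaves out, 7 are large-subunit genes, so the set of genes changed along with the window. Their separate effects were not tested. With peaks near another gene left out the difference came to -17.4 on the TR4 side and -11.5 on the BCL11A side. With MRPS18A and MRPS30 counted in the large subunit, where their proteins sit, it came to -5.14 on the TR4 side and -5.36 on the BCL11A side. In lists of equal length 32.4% of large-subunit and 46.4% of small-subunit genes had a TR4-directed peak, and 21.8% and 20.2% had a BCL11A-directed peak, so the difference on the BCL11A side was then above 0, at 1.53 percentage points.

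Members were also split by whether the systematic name of the protein marks a bacterial homologue. On average the 46 with one had peaks in 4.72 TR4-directed libraries against 6 on the BCL11A side, and the 31 without one in 5.71 against 6.16. All 3 called members were among the 28 tested members without a homologue, 2 TR4-preferred (7.14%) and 1 BCL11A-preferred (3.57%). Of the 40 tested with one, 0 were called by Fisher's exact test. Over all genes tested the shares were 0.856% and 10.7%. At an unadjusted p under 0.05 the members with a homologue had 2 in the TR4 (5%) and 9 in the BCL11A direction (22.5%). Those without one had 2 (7.14%) and 4 (14.3%), where all genes tested had 2.2% and 26.2%. No difference between members with and without a homologue was tested.

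The sets of members were also compared between clones. With the TR4 antibody, 45 members had a group peak in clone TB and 42 in clone T, and 39 were in both (86.7% of the first and 92.9% of the second, where the shares over all genes were 81% and 88.8%). With HA the counts were 54 in clone TB and 59 in clone B with 51 shared (94.4% and 86.4%, against 92.8% and 86% over all genes). MRPL30 had an HA peak in 3 of 3 libraries of clone TB and 0 of 3 of clone B, as did 0.16% of all genes. The MYC antibody gave a group peak at 62 members in clone TB, where it reaches both proteins. These included all 47 of clone T and 54 of the 63 of clone B (100% and 85.7%, against 97.4% and 88.9% over all genes). MRPL14, MRPL40, MRPL57, MRPS2 and MRPS34 had a MYC peak in 3 of 3 libraries of clone TB and 0 of 3 of clone T. These are 6.49% of members, beside 6.4% of all genes, and the MYC lists of clone TB averaged 23731 peaks and those of clone T 10696. MRPL27 and MRPS18B had one in 3 of 3 libraries of clone TB and 0 of 3 of clone B, and MRPS7 had the reverse, where 0.654% and 0.354% of all genes did. MYC and TR4 antibodies in clone T shared 41 members of 47 and 42 (87.2% and 97.6%, against 84.3% and 90% over all genes). MYC and HA in clone B shared 56 of 63 and 59 (88.9% and 94.9%, against 90.3% and 95.3%).

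Most peaks at members lay at gene starts. Strand was known for 69 members. All of those with a group peak had it at the 5′ end of the gene record, 45 of 45 with MYC in clone T, 40 of 40 and 42 of 42 with the TR4 antibody in clones T and TB, and 57 of 57, 54 of 54 and 51 of 51 on the BCL11A side. From 2 to 6 of them per group also had one at the 3′ end. The median summit lay 23 to 63 bases upstream of the annotated start in TR4-directed libraries, with a mean position of -51.6 ± 12.7 bases, and 61 to 99.5 bases upstream in BCL11A-directed libraries, at -77.3 ± 11.3 (SD, n = 9 each). The summit nearest the start was within 250 bases of it for at least 85.2% of members in every TR4-directed and BCL11A-directed library. Where TR4 and HA peaks of clone TB overlapped, their summits were a median of 26, 34.5 and 22 bases apart in replicates 1, 2 and 3, over 40, 44 and 21 members.

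**Figure D5:**
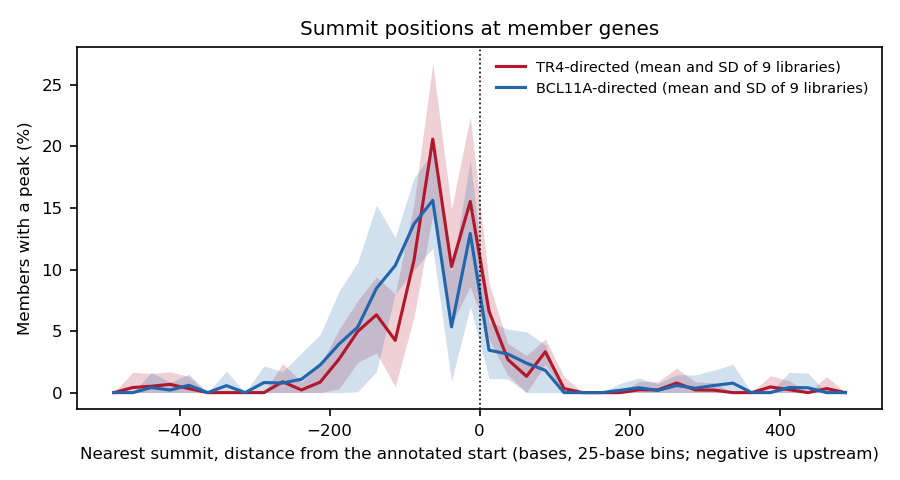
Distance of the nearest summit from the annotated start (bases, negative upstream), as the percentage of members with a peak in bins of 25 bases, mean (line) and SD (band) over 9 TR4-directed and 9 BCL11A-directed libraries. Both curves are highest just upstream of the start, and the mean of the library medians is -51.6 bases in TR4-directed and -77.3 bases in BCL11A-directed libraries.

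Many of these regions are shared with a neighbour, and 42 of the 77 members have an end of another protein-coding gene within 1 kb. MRPL46 of the large subunit and MRPS11 of the small subunit start in opposite directions around 1 region on chromosome 15, chr15:88467350-88467487, and so had the same peaks, in 4 TR4-directed and 6 BCL11A-directed libraries. MRPS12 (uS12, of the decoding site) shares its start region with SARS2, the mitochondrial seryl-tRNA synthetase.

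Motifs were counted in the RefSeq promoter windows of 69 members and of 15860 protein-coding genes, on both strands. CCGGAAG was present in 29 member promoters (42.0%) and in 14.2% of all promoters. Among the 37 members with a group peak in all 3 TR4-directed groups it was present in 19 (51.4%), and among the 20 with none in 5 (25.0%). AGGTCA was present in 11 member promoters (15.9%) and in 11.7% of all. It was found in 8 of those 37 members (21.6%) and 1 of those 20 (5%). On the BCL11A side it was found in 8 of the 46 members with a group peak in all 3 groups (17.4%) and 2 of the 8 with none (25%). A direct repeat of AGGTCA with 1 base between the copies was found in 0 member promoters and 0.019% of all. TGACCA, which overlaps AGGTCA in its reverse form TGACCT at the first 5 letters, was present in 6 member promoters (8.70%) and 9.32% of all. It was found in 4 of the 37 members with all 3 TR4-directed groups (10.8%) and 2 of the 46 with all 3 BCL11A-directed groups (4.35%). AGATAA, which GATA factors bind, was in 2 members (2.90%) and 7.57% of all, and CCAAT in 20 (29.0%) and 36.4%. CCAAT was found in 15 of the 37 (40.5%) and 3 of the 20 with no TR4-directed group peak (15%). A match describes the letters in the window and is not a bound site. Base composition of the windows was not examined.

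Other genes of mitochondrial translation were read from the same test, in which 0.856% of all genes tested were called TR4-preferred and 10.7% BCL11A-preferred. The 5 ribosomal proteins with other symbols had 4 members tested, of which 1, GADD45GIP1 (mL64), was called BCL11A-preferred, with 0 TR4-directed peaks against 7 on the BCL11A side (Fisher's exact test, adjusted p = 0.0222). AURKAIP1 (mS38) had 9 TR4-directed and 9 BCL11A-directed libraries with a peak, CHCHD1 (mS37) 9 TR4-directed and 4 BCL11A-directed, and PTCD3 (mS39) 5 TR4-directed and 4 BCL11A-directed. DAP3 (mS29), with 1 of each, was not tested. Of 14 translation factors 12 were tested and 0 were called in either direction, with 1 at an unadjusted p under 0.05, the recycling factor MRRF (3 TR4-directed and 8 BCL11A-directed). TUFM, the elongation factor that brings aminoacyl-tRNA to the ribosome, had peaks in all 18. Of 24 assembly and rRNA factors 20 were tested and 3 (15%) were called BCL11A-preferred, near the share of all genes. They were DHX30 and MRM2 (0 TR4-directed and 7 BCL11A-directed libraries, adjusted p = 0.0222 each) and YBEY (1 TR4-directed and 9 BCL11A-directed, adjusted p = 0.00716), all by Fisher's exact test. MRM2 methylates the large rRNA and YBEY takes part in maturation of the small subunit. Of 22 mitochondrial aminoacyl-tRNA synthetase and amidotransferase genes 17 were tested and 1, GARS1, which serves the cytosol and mitochondria, was called BCL11A-preferred (0 TR4-directed and 8 BCL11A-directed, Fisher's exact test, adjusted p = 0.00716). Fisher's exact test called 0 genes of these 4 lists TR4-preferred, and 1, CHCHD1, had an unadjusted p under 0.05 in that direction. MYC group peaks were found at 54.2% (assembly) to 71.4% (factors) of these lists in clone T and 79.2% (assembly) to 85.7% (factors) in clone B. Cytosolic ribosomal protein genes gave 56.1% in clone T and 73.2% in clone B, and complex I NDUF genes 48.6% and 70.3%, so shares above those of all genes were found in those lists too.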

How the data were processed

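Peak lists of 24 CUT&RUN libraries were used. Trimmomatic, Bowtie2, Picard, SAMtools and MACS2 2.1.4 and the build GRCh38 are named in the submitters' processing notes, without their roles. The authors deposited 1 list per library, with a fold enrichment (a linear ratio) and −log10 p- and q-values for each peak. The lowest −log10 q in a deposited list was 2.00 to 2.05. Folds were used only within a list, as values or percentiles, since lists were not scaled to each other. Longer lists raise every count of genes with a peak.

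Gene ends came from RefSeq (GRCh38.p14), and a gene had a peak where one reached within 1 kb of either end. Strand and start came from the RefSeq promoter table, which held 69 of the 77 members. The test did not use MYC in clone TB, where both proteins carry that epitope. Genes with a peak in at least 4 of 18 libraries entered a two-sided Fisher's exact test, with p adjusted by Benjamini-Hochberg at 0.05 over all of them, checked on simulated data. No test was run over the members, which, like the gene lists, were chosen with earlier results of these data known. Named by rule were called members, the 8 highest by mean percentile among those with a peak in all 18 libraries, members with no target peak, members at 3 against 0 in clone TB, members with an IgG peak, and MRPS18A and MRPS30. Others were named after their values were seen. Alternatives changed the window, gene end, q-value, list length, shared peaks, libraries and replicate block. Python 3.11.15, scipy 1.17.1 and pandas 2.3.3 were used. A further erythroid gene is not reported here.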

Additional observations from a re-analysis of the deposited data

How the results depend on the processing

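The count of TR4-preferred members, 2, was 4 with −log10 q of at least 5, 13 with equal list lengths, and 0 with peaks near another gene left out, without MYC libraries, within clone TB alone (3 against 3 cannot pass) and with replicate 3 left out of all groups, an alternative chosen after seeing the data. Where Fisher's exact test gave 0, members at an unadjusted p under 0.05 in that direction numbered 1, 2, 0 and 2 in that order. It stayed at 2 to 2 when 1 library was left out. The BCL11A-preferred count, 1, was 7 with −log10 q of at least 5, 2 with equal list lengths, 2 with peaks near another gene left out, 0 without MYC libraries (1 at an unadjusted p under 0.05), 0 within clone TB alone (0 at that level), 2 with ribosomal proteins of other symbols added, 4 with replicate 3 left out, and 1 to 11 with 1 library left out. With fewer libraries the smallest p that Fisher's exact test can give is larger. The difference in mean members, -8.11, was 12.6 with equal list lengths and -10.9 to -5.89 with 1 library left out. The large minus small difference in TR4-directed libraries, -9.81, was -1.15 with the annotated start only, -17.4 with peaks near another gene left out and -10.7 to -8.55 with 1 library left out, and -5.14 with MRPS18A and MRPS30 in the large subunit. In BCL11A-directed libraries -8.22 was -1.50 with the annotated start only, 1.53 with equal list lengths, -11.5 with peaks near another gene left out, -12.8 within clone TB alone, -5.36 with those genes moved and -10.1 to -6.25 with 1 library left out. Group peaks required in all 3 libraries were found at 26 members (MYC clone T), 30 (MYC clone B), 30 (HA clone B) and 34 (HA clone TB). Beyond what fewer libraries or shorter lists entail, the cause of a change was not tested. None of the alternatives run reversed the direction of a called member, but MRPL53, MRPL43 and MRPS34 each lost the call in 4 of 30. With peaks near another gene left out, MRPL43 and MRPS34 had 0 libraries on either side and so no direction to reverse.

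With a replicate block the test called 2 members TR4-preferred and 5 BCL11A-preferred (MRPS34, MRPS6, MRPL3, MRPL9 and MRPL58, the last 4 at an adjusted p of 0.0378 by the exact stratified test), and over all genes 91 and 1177, against 82 and 1030 without it. All-gene counts were 176 and 1520 with −log10 q of at least 5 and 43 and 668 with replicate 3 left out of all groups, 1071 and 704 with equal list lengths, and 83 to 133 and 1038 to 1873 with 1 library left out. The labels do not say what a replicate number shares, so the main test did not pair libraries by number. Deviations of same-numbered TR4-directed and BCL11A-directed libraries correlated at 0.0928, 0.201 and 0.287 for replicates 1, 2 and 3. Replicate 2 of the TR4 side correlated at 0.212 with replicate 1 of the BCL11A side, and replicate 1 with replicate 2 at 0.0728. Replicate 3 of either side correlated negatively with replicates 1 and 2 of the other, at -0.275 to -0.1095. Each deviation was taken from the mean of the 3 libraries of its group, so deviations cancel over the replicate numbers. Positive values for some pairs of numbers therefore entail negative values for others. Whether libraries of the same number share an effect was not tested. Depth is unknown, and a missing peak may lie under the caller's threshold.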

Other observations

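At MRPS28 the strongest peak stood at the 99.991 percentile or higher in all 3 TR4 antibody libraries of clone TB, with folds of 430, 442 and 561, and in all 3 MYC libraries of that clone, with folds of 514, 502 and 663. In clone T its folds were 95.1, 135 and 75.7 with the TR4 antibody and 151, 145 and 80.7 with MYC, at percentiles of 97.8 to 98.9. BCL11A-directed folds were 10.4 to 22.9. MRPS28 encodes a small-subunit protein. Records of TPD52 and TPD52-MRPS28 each have an end within 1 kb of an end of its record, so the peak was not assigned to 1 gene. Folds of different lists were not scaled to each other, and no difference between the clones was tested.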
